A study of Mus musculus with 30 samples.

Results

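Bone marrow (BM) of obese *Ob/Ob* mice that had received the GLP-1R agonist beinaglutide together with an anti–IL-17A antibody (Combo) was compared with BM of *Ob/Ob* mice given vehicle (Vehicle). The members were the 3 Combo and the 3 Vehicle libraries of whole BM, chosen by their labels, which are 6 of the 30 samples of the study, and all 13353 genes of the BM count table. The study profiled whole BM and F4/80+ adipose tissue macrophages in 5 groups of 3 samples, wild-type (WT) recipients and *Ob/Ob* recipients on Vehicle, GLP-1R agonist, antibody or Combo. All recipients had been irradiated with 700 cGy and 400 cGy and transplanted with a 1:1 mixture of CD45.2+ BM cells of Shp2E76K/+;LysM-Cre+ mice and CD45.1+ BM cells of Boy/J competitor mice. From 8 weeks after transplantation the *Ob/Ob* mice were treated for 30 days, in the Combo group with 3 mg/kg of beinaglutide, injected subcutaneously, and 200 μg of antibody per mouse, injected intraperitoneally 3 times per week. The labels give mice of both sexes, 12 to 14 weeks old, without naming the step, the study's methods state other ages for recipients and donors, and every sample carries the label Batch 1.

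Several features of the model limit what each value stands for. The Cre recombinase is driven by the lysozyme M promoter, which is active in myeloid cells, while the LepOb allele is carried by the recipients and not by the donor cells. The BM of a recipient is therefore a mixture of mutant donor cells, competitor cells and surviving host cells, which the counts do not separate. The genotype label reads C57BL/6J for all samples. Whole BM was sequenced in bulk, so fewer cells of a type and less RNA per cell cannot be told apart in any result given here. The labels call the 3 samples of a group mice, and the sources used here do not say whether BM was pooled, so p-values measure the spread between these samples.

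*Ptpn11*, which encodes SHP2, acts between growth factor receptors and the Ras-ERK cascade, and the E76K change keeps the phosphatase in an open, active state. IL-17A is a product of Th17 and some innate lymphoid cells, which through its heterodimeric receptor induces chemokines and cytokines that draw in and sustain neutrophils and monocytes. Interferons signal through JAK kinases and STAT transcription factors to a large set of antiviral and antigen-presentation genes, and in BM they are known to act on hematopoietic stem cells. GLP-1 is an incretin hormone, which lowers glucose and is degraded by the peptidase DPP4.

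Counts on genes totaled 31281097 to 34797411 per Vehicle library and 35880000 to 36909493 per Combo library, and the 10 most counted genes took 14.7% to 15% of them. Replicates were close, with a biological coefficient of variation of 3.51%, and each pair of libraries in a group differed by more than counting noise (chi-square per degree of freedom of 2.04 to 4.14), so none was a library deposited again, although this does not tell separate mice from repeat libraries of a pool. Defining genes of whole BM were present in all 6 libraries, among them *Mpo*, *Cd79a* and *Slc4a1*. The sex-linked genes differed between the groups. *Xist*, transcribed from the inactive X chromosome, was at 6582, 6712 and 6339 normalized counts in the Vehicle libraries and 3657, 3644 and 3528 in the Combo libraries, against 2.60, 0 and 2.15 in WT. *Eif2s3y*, on the Y chromosome, was at 1058, 1105 and 1171 in Vehicle and 146, 149 and 188 in Combo, against 2776, 2471 and 2398 in WT. *Ddx3y* (712 ± 26.9 to 163 ± 15.1), *Kdm5d* (319 ± 14.6 to 60.0 ± 22.2) and *Uty* (147 ± 1.81 to 39.3 ± 1.99) moved in the same direction as *Eif2s3y*. Of 5 sex-linked genes tested, the 4 on the Y chromosome fell, and *Xist* stayed below the fold-change limit at a log2 fold change of -0.86. These levels differed along with the treatment. The part of the sex of the cells in the results below was not tested and cannot be told apart from that of the treatment. Normalized counts are counts scaled by TMM to the mean effective size of the 15 BM libraries, and each is given as mean ± SD (n = 3) or for the 3 libraries of a group in order of their number.

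Of the 13353 genes, 878 (6.58%) rose and 1487 (11.1%) fell with Combo, 2365 (17.7%) in all. These calls required a log2 fold change beyond 1 in either direction and an adjusted p below 0.05 (edgeR's quasi-likelihood test, Benjamini-Hochberg adjustment), the test behind each adjusted p given here. The falls were larger than the rises, with medians of -1.73 and 1.34 on the log2 scale, and 146 genes fell but 14 rose by more than 16-fold in the fit. Because replicates were so close, 75.7% of all genes had 3 Combo libraries on one side of the 3 Vehicle libraries, so that separation of the groups alone says little about a gene. The median log2 fold change over all genes was 0.02.

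**Figure D1:**
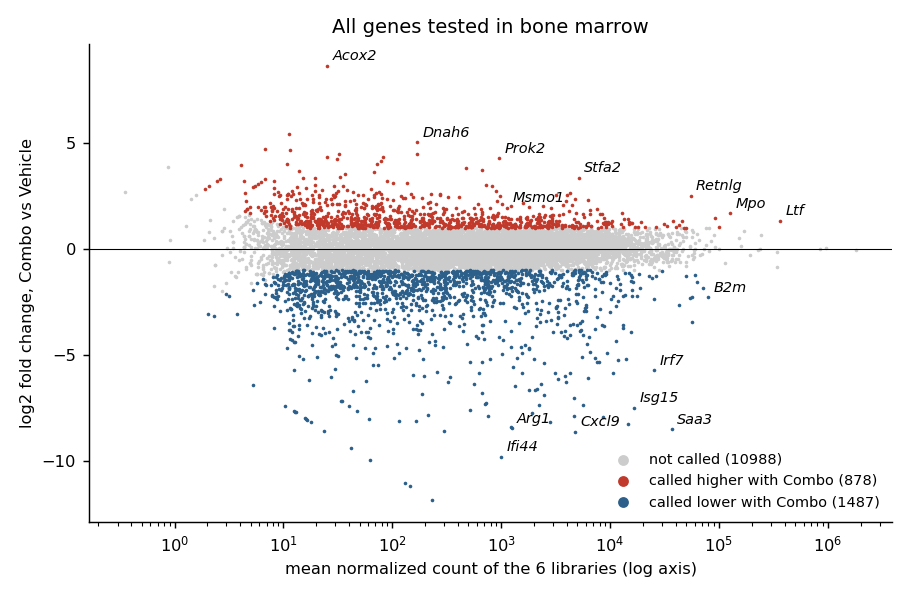
Each point is a gene, with the mean normalized count of the 6 libraries on the x axis (log scale) and the log2 fold change of Combo over Vehicle on the y axis. The 1487 genes called lower reach far below the 878 called higher, and fitted values of genes with almost no counts in a group, such as *Acox2*, depend on a prior count and are no bounds.

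Where the mean reached 100 normalized counts, the gene was called and the libraries did not overlap between the groups, the 10 largest falls in the fit were those of *Cxcl11*, *Il22*, *Ifi44*, *Cxcl9*, *Apol9b*, *Saa3*, *Arg1*, *Mx2*, *Cfb* and *Phf11d*. The ranks of *Cxcl11*, *Il22* and *Apol9b* rest on fitted values and would be lower at the bounds given below. *Cxcl11* was at 272, 308 and 283 in Vehicle and at 0 counts in the 3 Combo libraries, a fall of at least 91.9-fold (adjusted p = 3.98e-19), with 41.7% of its exon length shared. *Il22*, which encodes an epithelial-repair cytokine of Th17 and innate lymphoid cells, was at 215, 289 and 286 in Vehicle and also at 0 counts in every Combo library, a fall of at least 84.1-fold (adjusted p = 2.72e-18). *Saa3*, an acute-phase serum amyloid gene, held 70778, 73811 and 75149 in Vehicle and 207, 189.5 and 213 in Combo, a log2 fold change of -8.49 (standard error, SE, 0.0452, adjusted p = 5.24e-49). *Cfb*, complement factor B of the alternative pathway, fell from 29154 ± 579.7 to 95.3 ± 19.7 (adjusted p = 1.04e-21), although 79.5% of its exon length is shared with other genes, where a read was counted for each gene. *Apol9b* fell at least 189-fold, to 2 counts or fewer per Combo library, and *Phf11d* from 5605 ± 232 to 19.5 ± 3.12.

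The 10 largest rises under the same rule were those of *Dnah6*, *Cd300lg*, *Prok2*, *Cd101*, *Steap4*, *Stfa2*, *Cxcr1*, *Svep1*, *Mcam* and *Ggt1*, several of which are known from granulocytes. *Stfa2*, a stefin that inhibits cysteine proteases, was at 914, 946 and 876 in Vehicle and 9728, 9573 and 9033 in Combo, a log2 fold change of 3.37 (SE 0.0442, adjusted p = 1.57e-41). *Prok2*, which encodes the chemotactic peptide prokineticin 2, rose from 93.7 ± 19.1 to 1829 ± 77.7 (adjusted p = 2.11e-32). *Cd101*, found on mature neutrophils, was at 61.2, 58.0 and 64.8 in Vehicle and 881, 862 and 897 in Combo, a log2 fold change of 3.84. *Cxcr1*, an IL-8 receptor, rose from 28 ± 13.1 to 247 ± 10.9, and *Steap4*, a metalloreductase, from 93.2 ± 13.7 to 1228 ± 77.5. *Dnah6*, an axonemal dynein heavy chain, rose from 9.89 ± 3.20 to 327 ± 22.9, *Cd300lg* from 14.4 ± 3.29 to 321 ± 51.5, *Mcam* from 156 ± 19.6 to 1295 ± 59.9, *Ggt1*, a glutathione-cleaving transferase, from 185 ± 31.3 to 1466 ± 43.6 and *Svep1* from 20.9 ± 6.77 to 183 ± 12.7.

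Measured as a difference and not as a fold, the largest changes were in abundant genes, several of them myeloid. The largest falls in CPM, here counts scaled to the effective library size (the total times its TMM factor), were those of *Chil3*, from 12621 to 7101 CPM, *B2m*, from 3763 to 780.1, *Slfn4*, from 2953 to 274, *Plac8*, from 3205 to 889, and *Ly6e*, from 2681 to 563. The largest rises were those of *Ltf*, from 5966 to 15052 CPM, *Mpo*, from 1717 to 5564, *Actb*, from 5415 to 8468, *Lyz2*, from 3462 to 6297, and *Mmp9*, from 1396 to 3848. *Chil3*, *Actb* and *Lyz2* passed the false discovery rate but not the fold-change limit, with log2 fold changes of -0.83, 0.65 and 0.86.

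Type I interferon-stimulated genes encode antiviral proteins, among them the IFIT RNA sensors, the MX GTPases and the ubiquitin-like ISG15. All 36 members tested fell with Combo, against 11.1% of all genes, with a median log2 fold change of -4.40 and a range of -9.81 to -1.13. Their summed normalized counts were 408430.1 to 412170 per Vehicle library and 40338 to 40535 per Combo library. *Isg15* (chromosome 4, 156199424 to 156200818, GRCm38) held 33006, 31934 and 33374 in Vehicle and 165, 175 and 203 in Combo, a log2 fold change of -7.50 (SE 0.0481, adjusted p = 4.18e-49). *Ifit3* (chromosome 19, 34583531 to 34588731) held 16891, 17247 and 17103 and 70.0, 51.9 and 87.6 (log2 fold change -7.93, adjusted p = 1.85e-36). *Ifi44* fell from 1986 ± 57.9 to 2.11 ± 2.81 (adjusted p = 1.08e-14), and *Mx2* from 2429 ± 88.2 to 6.98 ± 4.32 (adjusted p = 1.36e-37). For each of these genes the lowest Vehicle library was far above the highest Combo library.

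The interferon-gamma GTPases, the guanylate-binding and immunity-related GTPases that attack pathogen vacuoles, moved likewise. All 17 members tested fell, against 11.1% of all genes. Their median log2 fold change was -4.92, or -4.71 with the 2 members that had at most 3 counts per Combo library set at their bound. *Tgtp1* was at 3633, 3576 and 3579.7 in Vehicle and 37.0, 34.9 and 35.5 in Combo (log2 fold change -6.64, adjusted p = 7.53e-38). *Iigp1* fell from 4418 ± 44.3 to 26.8 ± 1.38, *Gbp6* from 2619 ± 22.3 to 29.5 ± 7.81 and *Gbp10* at least 73.5-fold. Of the exon length of *Gbp6* and *Gbp10*, 29% and 46.3% are shared with other genes, and members of this family are alike in sequence, so counts of single members are uncertain.

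The promoter sequences of members that fell are shown because interferon regulatory factors and STAT complexes bind the interferon-stimulated response element, whose core was searched as GAAANNGAA, and NF-kB a site whose core was searched as GGGANNTTC. Each line gives RefSeq sequence of GRCm38.p6 that ends at the base before the annotated start site, 5′ to 3′ on the strand of the gene, with matches to either core on either strand in capitals.
Isg15 (chr4:156200819-156200938, minus strand): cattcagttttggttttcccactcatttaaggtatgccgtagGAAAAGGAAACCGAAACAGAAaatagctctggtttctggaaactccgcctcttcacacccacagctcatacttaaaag
Ifit3 (chr19:34583349-34583528, plus strand): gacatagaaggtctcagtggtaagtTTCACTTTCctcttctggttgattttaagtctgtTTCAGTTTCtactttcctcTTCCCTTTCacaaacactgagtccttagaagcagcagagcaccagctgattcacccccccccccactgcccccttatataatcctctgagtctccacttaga
Tgtp1 (chr11:48992247-48992366, minus strand): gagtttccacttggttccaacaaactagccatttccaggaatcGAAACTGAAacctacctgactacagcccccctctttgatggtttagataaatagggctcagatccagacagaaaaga
Gbp2 (chr3:142620543-142620662, plus strand): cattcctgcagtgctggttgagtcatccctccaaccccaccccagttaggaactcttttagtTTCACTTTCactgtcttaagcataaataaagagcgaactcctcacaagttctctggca
Cxcl9 (chr5:92328080-92328279, minus strand): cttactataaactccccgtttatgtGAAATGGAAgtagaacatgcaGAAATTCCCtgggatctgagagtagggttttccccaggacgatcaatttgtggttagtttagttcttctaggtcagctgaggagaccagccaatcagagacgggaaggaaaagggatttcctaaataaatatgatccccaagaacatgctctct
Cxcl10 (chr5:92348890-92349129, minus strand): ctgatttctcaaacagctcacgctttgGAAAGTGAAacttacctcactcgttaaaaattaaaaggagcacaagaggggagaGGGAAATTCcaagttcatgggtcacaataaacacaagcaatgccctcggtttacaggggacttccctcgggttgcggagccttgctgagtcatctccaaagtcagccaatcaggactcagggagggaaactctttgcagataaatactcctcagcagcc
Cxcl1 (chr5:90891125-90891244, plus strand): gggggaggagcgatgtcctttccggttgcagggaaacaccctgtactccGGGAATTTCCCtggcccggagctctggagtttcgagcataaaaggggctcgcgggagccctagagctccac
In *Isg15* the capitals are 3 overlapping matches to the interferon core, which begin 78, 72 and 66 bases before the start site. *Ifit3* holds 3 separate matches on the opposite strand, beginning 155, 121 and 102 bases before the start. *Gbp2* and *Tgtp1* hold a single match each, *Cxcl9* and *Cxcl10* hold a match to each core, and *Cxcl1* holds 2 overlapping matches to the NF-kB core and none to the interferon core. *Gbp2* was added to these sequences after its values were seen.

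Counted over the 250 bases before the start, with any of a gene's listed start sites, the interferon core was found for 12 of 25 type I interferon-stimulated genes (48%) and for 9 of 10 interferon-gamma GTPases (90%) that matched a promoter by symbol. The share was 7.87% of the 10113 genes tested that matched and 8.18% of all 27025 genes with a promoter sequence. It was 14.2% among 1061 genes called lower and 4.98% among 643 called higher. The NF-kB core was found for 5 of 8 CXC chemokines (62.5%) and 5 of 13 IL-17 target genes (38.5%), against 3.71% of the genes tested. It was found for 3 of 19 TNF family and NF-kB feedback genes (15.8%), for 0 of 7 CC chemokines and 0 of 6 acute-phase genes, and for 4.9% of genes called lower and 4.04% of those called higher. The interferon core was held by 4 of 13 class I presentation genes (30.8%), 3 of 8 CXC chemokines (37.5%), 2 of 7 CC chemokines (28.6%), 2 of 6 acute-phase genes (33.3%), 1 of 16 cholesterol synthesis genes (6.25%) and 1 of 8 primary granule genes (12.5%). A match is a run of letters and not a measured binding site.

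Upstream of these targets lie the interferon receptors and their signaling proteins. Of 28 interferon receptors, kinases, STATs, IRFs and SOCS genes, 1 rose and 8 fell, against 6.58% and 11.1% of all genes, with a median of -0.23. *Irf7*, the factor that amplifies type I interferon production, held 48268, 49492 and 50888 in Vehicle and 930.1, 986 and 917 in Combo, a log2 fold change of -5.71 (SE 0.0458, adjusted p = 1.69e-30). *Stat2* fell from 16168 ± 181 to 1290.1 ± 39.6 (adjusted p = 1.09e-45). The feedback inhibitors *Socs1* and *Socs2* fell from 919.5 ± 60.7 to 138 ± 15.6 and from 195 ± 10.6 to 61.6 ± 3.63. *Ifng*, the ligand of the type II receptor, fell from 129.5 ± 12.8 to 4.15 ± 3.75 (adjusted p = 1.66e-15), with 25.9% of its exon length shared with other genes. *Ifnlr1*, the 1 member that rose, had a log2 fold change of 1.20 and was chosen for naming after its values were seen.

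Schlafen genes, which restrain growth and viral replication, include abundant myeloid members. Of 7 tested, 4 fell and none rose, against 11.1% of all genes called lower. *Slfn4* was at 103293, 103889 and 101288 in Vehicle and 9463, 9815 and 9377 in Combo (log2 fold change -3.43, adjusted p = 3.87e-31). *Slfn5* fell from 12641 ± 137 to 432 ± 29.9, *Slfn8* from 5652 ± 53.5 to 377 ± 12.9 and *Slfn1* from 24226 ± 78.8 to 8149 ± 75.6.

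Antigen presentation genes of both classes were lower with Combo. Of 16 class I genes 13 fell and none rose (median -2.25), against 11.1% of all genes called lower. *B2m*, the invariant chain partner of class I molecules, was at 133800, 128812 and 130561 in Vehicle and 28279.5, 26107 and 27115 in Combo (log2 fold change -2.27, adjusted p = 1.75e-44). *Nlrc5*, the transactivator of class I genes, fell from 5932 ± 200.1 to 510.0 ± 28.6, and *Psmb10*, an immunoproteasome subunit, from 10544 ± 282 to 1574 ± 52.4. *H2-Q4* fell from 24593 ± 221 to 1887 ± 73.4 and *H2-T22* from 40.0 ± 1.80 to 4.17 ± 2.74, with 19.1% and 29.4% of exon length shared, and class I paralogs resemble each other closely. Of 10 class II genes 8 fell (median -1.74), against the same 11.1%. *Cd74*, the invariant chain, was at 21979, 22205 and 22869 in Vehicle and 4935, 4976 and 5174 in Combo (log2 fold change -2.15, adjusted p = 1.51e-29). *H2-Aa* fell from 9310.3 ± 161 to 1965 ± 24.6, *H2-Ab1* from 8243 ± 223 to 1873 ± 127 and *H2-Eb1* from 6868 ± 128 to 1332 ± 24.5. B cells and dendritic cells, which carry class II molecules, also had lower marker counts, given below, and their part in this result was not tested.

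Among proteasome genes, 3 of 20 fell and none rose (median -0.55), a share near the 11.1% of all genes. These were *Psme1* (25053 ± 375 to 6506 ± 80.4) and *Psme2* (17436 ± 559 to 3751 ± 113), which encode the interferon-inducible activator of the immunoproteasome, and the core subunit *Psma5* (10518 ± 111 to 4107 ± 22.2). *Psma2* had a log2 fold change of -0.66 and was not called.

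**Figure D2:**
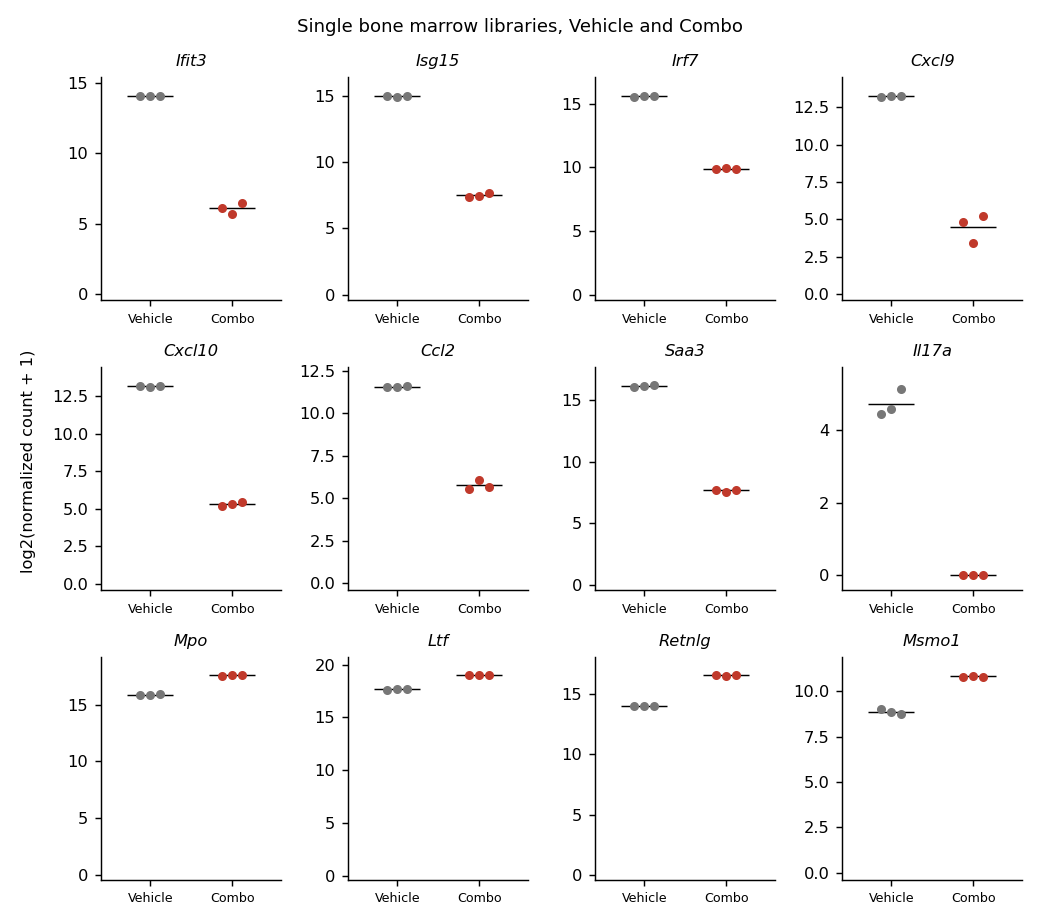
Each dot is 1 BM library and the line is the mean of the 3 plotted values, on a log2(normalized count + 1) scale. For the 8 genes from *Ifit3* to *Il17a* all Vehicle libraries lie above all Combo libraries, and for *Mpo*, *Ltf*, *Retnlg* and *Msmo1* all lie below.

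Most chemokines were called lower, against 11.1% of all genes. Of 10 CXC chemokines 9 fell and none rose (median log2 fold change -5.04, or -3.65 with 2 members at their bound), and the summed normalized counts were 24903 to 25369.9 per Vehicle library and 2229 to 2440.2 per Combo library. *Cxcl9*, a CXCR3 ligand that recruits T cells, held 9317, 9769 and 9575 in Vehicle and 26.7, 9.53 and 35.5 in Combo, a log2 fold change of -8.63 (SE 0.122, adjusted p = 6.61e-21). *Cxcl10*, another CXCR3 ligand, held 9445, 9078 and 9446 and 35, 39.2 and 42.8 (log2 fold change -7.90, adjusted p = 5.74e-46). The CXCR2 ligand *Cxcl1* had 17.0, 45.1 and 45.6 normalized counts in Vehicle and 0 counts in every Combo library, a fall of at least 11.5-fold, while *Cxcl2* fell from 3294 ± 21.1 to 995 ± 56.1 (adjusted p = 4.34e-30) and *Cxcl3* from 637 ± 28.9 to 8.03 ± 4.39.

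Of 11 CC chemokines 9 fell and none rose (median -3.89), against 11.1% of all genes called lower. *Ccl2* (chromosome 11, 82035571 to 82037453), the main attractant of CCR2+ monocytes, held 3069, 2982 and 3111 in Vehicle and 46.3, 65.7 and 49.0 in Combo, a log2 fold change of -5.83 (SE 0.1, adjusted p = 2.43e-37). *Ccl12*, another CCR2 ligand, fell from 1036 ± 28 to 5.22 ± 1.09, and *Ccl7* at least 104-fold, to 3 counts or fewer per Combo library. The inflammatory chemokines *Ccl3* (905 ± 71.3 to 256 ± 27.7, adjusted p = 3.29e-22), *Ccl4* (840.2 ± 22.6 to 56.8 ± 11.4, adjusted p = 7.2e-28) and *Ccl5* (7193 ± 85.1 to 500.1 ± 21.3) fell, as did *Ccl19* (109 ± 31.6 to 6.95 ± 1.56), which guides CCR7+ cells.

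Receptors split. Of 16 chemokine receptors 4 rose and 7 fell (median -0.31), against 6.58% and 11.1% of all genes. *Ccrl2* fell from 1970.2 ± 67.5 to 102 ± 29.7 and *Ccr7* from 841 ± 37.7 to 71.4 ± 12.0. Those that rose were *Cxcr1*, *Cxcr2*, *Cx3cr1* and *Ccr3*. *Cxcr2*, the neutrophil receptor for *Cxcl1* and *Cxcl2* products, rose from 11383 ± 263 to 27321 ± 111, *Cx3cr1* from 205 ± 5.37 to 447 ± 14.0 and *Ccr3* from 86.2 ± 16.9 to 184 ± 9.84. The latter 3 were named after their values were seen.

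In the IL-17 axis the ligands were low in Vehicle and lower with Combo. *Il17a* (chromosome 1, 20730905 to 20734496) had 20.4, 22.6 and 33.6 normalized counts in Vehicle, from 18 to 28 counts per library, and 0 counts in the 3 Combo libraries, a fall of at least 8.15-fold (adjusted p = 1.32e-07). *Il17f* was at 30.6, 33.3 and 32.4 in Vehicle and 8.23, 3.18 and 2.09 in Combo (log2 fold change -2.80, adjusted p = 4.85e-06). These 2 were the ligands tested, and at this depth a level below 3 counts per library could not be told from 0.

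Of 12 receptors and adaptors of the family 1 fell, a share near the 11.1% of all genes, *Il17rb* (86.9 ± 11.9 to 35.8 ± 7.26, adjusted p = 7.45e-06), which serves IL-25. *Il17ra*, the subunit shared by the IL-17A and IL-17F receptors, was at 11616, 12223 and 12179.9 in Vehicle and 14286, 14301 and 14401 in Combo (log2 fold change 0.26, adjusted p = 5.81e-12), below the fold-change limit. *Ikbke*, a kinase of the pathway, had a log2 fold change of -0.91 and *Tab2* of -0.02 (adjusted p = 0.648), neither of them called. *Il17rc* and *Il17re* were not analysed here.

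Genes known as targets of IL-17A moved both ways. Of 18 tested, 8 fell and 4 rose (median -0.76), against 11.1% and 6.58% of all genes. Besides the chemokines above, *Mmp13*, a collagenase, fell from 931 ± 50.3 to 377 ± 12.9 (adjusted p = 3.83e-19). The 4 that rose were *Steap4*, *Mmp9*, *Ptgs2* and *Cebpd*. *Mmp9*, a gelatinase stored in neutrophil tertiary granules, rose from 48627 ± 844 to 133996 ± 1762, *Cebpd*, a transcription factor of granulocytes, from 1921 ± 89.9 to 4901 ± 84.8 and *Ptgs2*, the inducible cyclooxygenase, from 52.3 ± 7.86 to 139 ± 10.9. *Cebpd* and *Ptgs2* were named after their values were seen.

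Of 12 genes of the Th17 program 5 fell and none rose, against 11.1% of all genes called lower. The summed normalized counts of the list were nevertheless 21734 to 22139 per Vehicle library and 24511 to 25279 per Combo library. *Il22* is given above. *Maf* fell from 685 ± 98.6 to 125 ± 11.5, and *Rora*, a nuclear receptor of Th17 and innate lymphoid cells, from 155 ± 7.03 to 30.7 ± 5.59. The 3 Combo libraries held fewer T cell marker counts as well, given below, and the part of T cell number in these falls was not tested.

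Cytokine genes were mostly lower, with *Il1b* as an exception. Of 20 tested, 13 fell and 2 rose (median -1.78), against 11.1% and 6.58% of all genes. *Il6* was at 344, 303 and 324 in Vehicle and 17.5, 16.9 and 26.1 in Combo (log2 fold change -3.99, adjusted p = 1.44e-19). *Il10*, which restrains macrophages, fell from 146 ± 8.03 to 3.12 ± 1.78, and *Il1a* from 85.4 ± 18.7 to 5.19 ± 3.68. *Il1b*, the inflammasome-processed cytokine, was at 604, 532 and 555 in Vehicle and 1312, 1277 and 1305 in Combo, a log2 fold change of 1.20 (SE 0.0485, adjusted p = 3.71e-24), with every Combo library above every Vehicle library. *Tnfsf14*, named after its values were seen, also rose, from 601 ± 28.7 to 1332 ± 22.4.

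Of 22 genes of the TNF family and of NF-kB feedback, 8 fell and none rose (median -0.66), against 11.1% of all genes called lower. *Tnf* itself was at 1515, 1555 and 1664 in Vehicle and 1092, 1089 and 1173 in Combo (log2 fold change -0.50, adjusted p = 2.52e-11), below the fold-change limit, and its libraries did not overlap. *Cd40*, a costimulatory receptor, fell from 763 ± 47.7 to 60.7 ± 17.2, *Traf1* from 803 ± 56.9 to 96.4 ± 5.42, the adhesion molecule *Icam1* from 2439.9 ± 31.4 to 463 ± 40.5 and lymphotoxin *Lta* from 36.6 ± 0.849 to 10.1 ± 1.34. *Socs3*, the brake on IL-6 signaling, was at 2273 ± 28.2 in Vehicle and 2070.4 ± 34.8 in Combo (log2 fold change -0.13, adjusted p = 0.0123).

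Innate sensing and humoral genes followed the same direction for most members called. Of 21 pattern recognition genes 8 fell and 2 rose, against 11.1% and 6.58% of all genes. The LPS co-receptor *Cd14* was at 5565, 5394 and 5659.9 in Vehicle and 1044, 1074 and 994 in Combo (log2 fold change -2.42, adjusted p = 2.29e-34), and the endosomal receptors *Tlr3* (149 ± 10.4 to 20.8 ± 8.84) and *Tlr9* (1124 ± 94.0 to 279 ± 14.4) fell. *Tlr5*, the flagellin receptor, rose from 47.7 ± 8.15 to 260.2 ± 21.2, as did *Clec7a*, the beta-glucan receptor, from 566 ± 21.8 to 1601 ± 36.2. Of 16 complement genes 7 fell and 2 rose, against the same shares, with a largest rise of 2.45 on the log2 scale. In 7 of them every Combo library lay above every Vehicle library, a share near the 38.9% of all genes. In 9 every Combo library lay below every Vehicle library. The summed normalized counts of the list were higher with Combo, 120319 to 123557.5 per Vehicle library and 133960 to 134725 per Combo library. *C3ar1* fell from 937 ± 77.3 to 42.0 ± 5.30, *C1qb* from 3569 ± 114 to 604 ± 10.3 and *C2* from 46.9 ± 20.1 to 6.30 ± 4.59, with 46.9% of the exon length of *C2* shared, and the receptor *C5ar2*, named after its values were seen, rose from 429 ± 49.8 to 907 ± 39.7.

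Of 8 acute-phase genes 6 fell and none rose (median -3.18), against 11.1% of all genes called lower. Beside *Saa3*, the long pentraxin *Ptx3* fell from 1455 ± 20.1 to 9.42 ± 2.91 (adjusted p = 2.43e-28), and the serine protease inhibitors *Serpina3f* and *Serpina3g* from 3883 ± 34.0 to 106 ± 12.5 and from 10570 ± 347 to 634 ± 31.3.

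Immune checkpoint genes restrain or license T cells. Of 12 tested, 10 fell and none rose (median -2.33), against 11.1% of all genes called lower, and the 2 others reached up to 0.88 on the log2 scale. *Cd274*, which encodes PD-L1, was at 3557, 3647 and 3644 in Vehicle and 203, 229.8 and 184 in Combo (log2 fold change -4.14, adjusted p = 2.69e-37). Its receptor *Pdcd1* fell from 324 ± 9.39 to 22.6 ± 3.58, *Ctla4*, the inhibitory receptor of T cells, from 1015 ± 20.1 to 25.3 ± 11.1 (adjusted p = 2.46e-30) and *Havcr2*, which encodes TIM-3, from 517 ± 25.6 to 72.8 ± 8.83.

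Arginase and nitric oxide synthase compete for arginine in macrophages. *Arg1*, the arginase of suppressive myeloid cells, held 2457, 2550.4 and 2474 in Vehicle and 9.26, 5.29 and 6.26 in Combo, a log2 fold change of -8.46 (SE 0.136, adjusted p = 2.38e-38). *Nos2*, the inducible nitric oxide synthase, fell from 1785 ± 64.2 to 488 ± 41.1 (log2 fold change -1.87, adjusted p = 9.03e-23). The arginine transporter *Slc7a2* fell from 189 ± 6.12 to 32.0 ± 3.07 and *Gch1*, which makes the cofactor of NOS2, from 2169.7 ± 36.9 to 569 ± 59.5. These were the 4 of 8 members that fell, against 11.1% of all genes, and none rose, the largest value among the others being 0.97. Of 10 genes of alternative activation 2 fell and 3 rose, against 11.1% and 6.58% of all genes. The scavenger receptor *Msr1* fell from 2371 ± 56.3 to 344 ± 33.5 and the transglutaminase *Tgm2* from 6784 ± 129.6 to 995 ± 51.3, while *Mrc1*, which encodes CD206, rose from 233 ± 19.9 to 651 ± 55.8 (adjusted p = 6.11e-20). *Clec7a* is given above, and *Cd163*, named after its values were seen, rose from 95.4 ± 9.79 to 217 ± 19.6.

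Granule genes of neutrophils were higher with Combo in part. Of 11 primary granule genes, which promyelocytes express, 5 rose and none fell (median 0.71), against 6.58% of all genes, and their summed normalized counts were 208779 to 214382 per Vehicle library and 448681 to 455005 per Combo library. *Mpo*, myeloperoxidase, held 58632, 60204 and 60588 in Vehicle and 191398, 194454 and 195405 in Combo, a log2 fold change of 1.70 (SE 0.0288, adjusted p = 1.77e-28). *Prtn3*, proteinase 3, rose from 27254 ± 588 to 59039 ± 333, the granulocyte transcription factor *Gfi1* from 1571 ± 49.4 to 3317 ± 117 and *Prss57* from 1169 ± 80.7 to 3353 ± 49.0, with 40.7% of the exon length of *Prss57* shared.

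Of 11 genes of secondary and tertiary granules 4 rose and none fell (median 0.72), against 6.58% of all genes called higher. Another 4, *Chil3* among them, stayed below the fold-change limit with every Combo library below every Vehicle library. Over all genes the libraries lay this way for 4913 of 13353, a share near that of the list. In 7 members every Combo library lay above every Vehicle library, against 38.9% of all genes. The summed normalized counts of the list were 2313586 to 2387986 per Vehicle library and 2652090 to 2679534 per Combo library. *Ltf*, lactoferrin, held 202455, 209328 and 211541 in Vehicle and 520280, 523984 and 528196 in Combo (log2 fold change 1.33, adjusted p = 1.24e-37). *Mmp8* rose from 26180.2 ± 429 to 54645 ± 1145 and *Cd177*, a neutrophil surface protein, from 65296 ± 1224 to 134848 ± 456. Of 12 markers of mature neutrophils 4 rose and 1 fell, against 6.58% and 11.1% of all genes. *Retnlg* was at 16277, 16167 and 16485 in Vehicle and 93915, 92820.4 and 93232 in Combo (log2 fold change 2.52, adjusted p = 4.57e-47). *Mmp25* rose from 4041 ± 157 to 12799 ± 64.1 and *Csf3r*, the G-CSF receptor, from 5865 ± 209 to 14889.5 ± 53.3, whereas *Il1r2*, the IL-1 decoy receptor, fell from 42221 ± 758 to 8312 ± 98.3 (adjusted p = 2.92e-44). The sum over the 12 markers was 2815083 to 2917019 per Vehicle library and 2804279.8 to 2888039.5 per Combo library, ranges that overlap. Single neutrophil genes thus rose while the summed marker level did not separate the groups. That sum lies far above the counts of the members named here, so other members set it. In 7 of the 12 every Combo library lay above every Vehicle library, against 38.9% of all genes, and in 4 below.

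The 6 genes of the phagocyte NADPH oxidase stayed below the fold-change limit, with a median of 0.69 and values such as 0.83 for *Cybb*, 0.82 for *Ncf1*, 0.88 for *Rac2* and -0.48 for *Cyba*. *Plac8* and *Ly6e*, both abundant in myeloid cells, fell from 111620 ± 527 to 30968 ± 343 and from 93372 ± 2694 to 19593 ± 384.

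**Figure D3:**
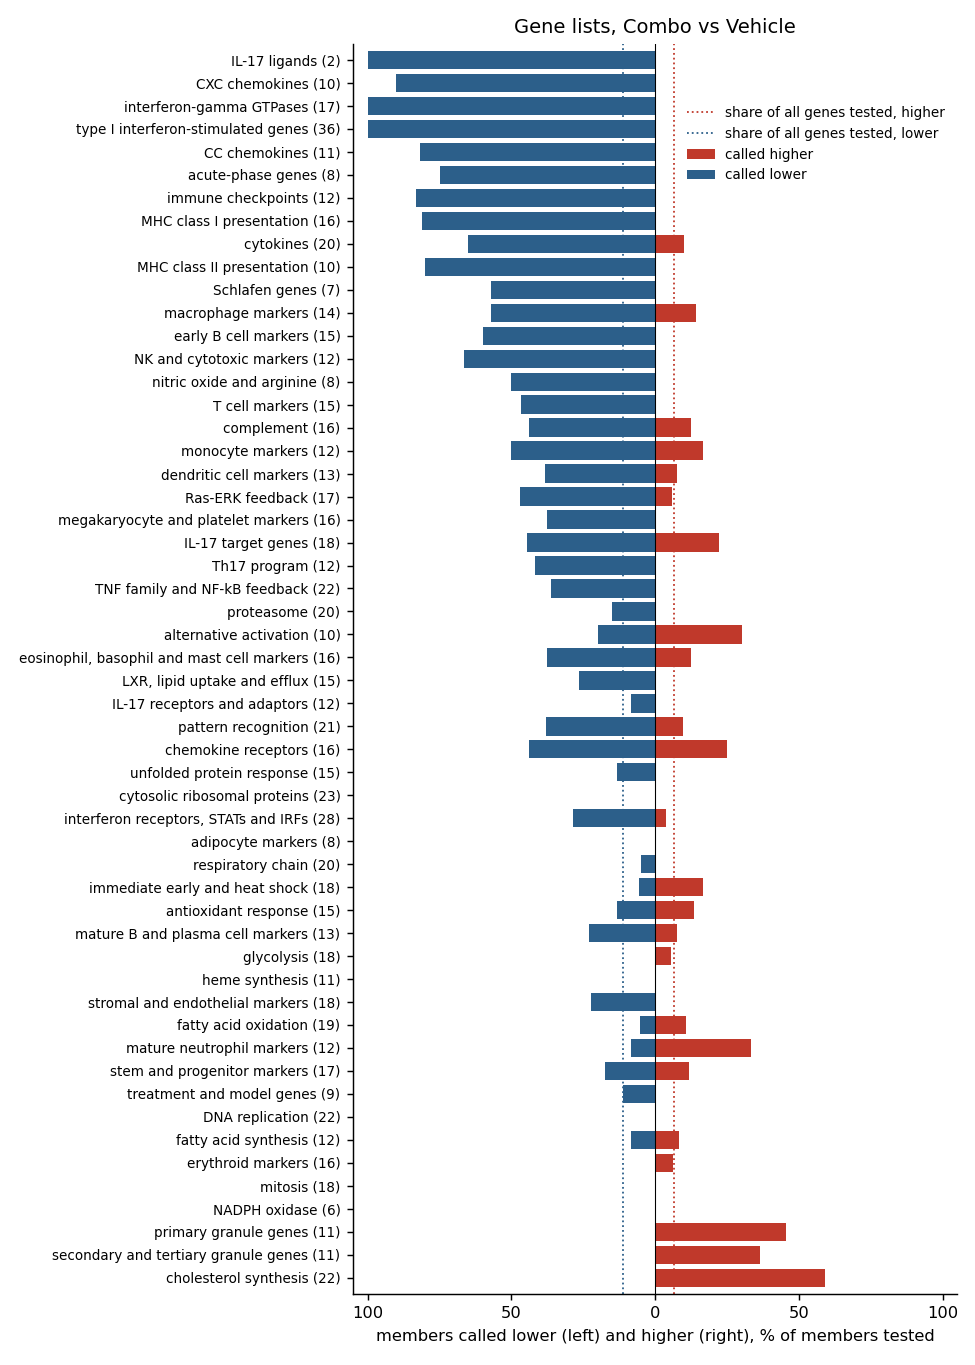
For each gene list, with the number of members tested in brackets, the blue bar to the left is the percentage called lower and the red bar to the right the percentage called higher with Combo; dotted lines mark 11.1% and 6.58%, the shares over all genes. Lists are ordered by their median log2 fold change, with IL-17 ligands at the top and cholesterol synthesis at the bottom.

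Markers of other BM cells were read in the same way, since they could enter any of the counts above. The numbers of markers called, here and for the cell types that follow, stand against 6.58% of all genes called higher and 11.1% called lower. Of 12 monocyte markers 6 fell and 2 rose, and the summed level was 146055 to 151323 normalized counts per Vehicle library and 70901 to 71344 per Combo library. *Fcgr1*, the high-affinity IgG receptor, was at 7588, 7664 and 7548 in Vehicle and 413, 384 and 429 in Combo (log2 fold change -4.22, adjusted p = 6.58e-26). *Klf4*, a factor of monocyte differentiation, rose from 234 ± 41.0 to 1541 ± 33.3. Of 14 macrophage markers 8 fell and 2 rose, with sums of 36803 to 38093 in Vehicle and 21064 to 22098 in Combo. The efferocytosis receptors *Mertk* (564 ± 56.2 to 96.1 ± 9.48) and *Timd4* (71.7 ± 1.15 to 7.26 ± 7.39) fell, as did *Spic* (464 ± 80.6 to 83.8 ± 4.79), the factor of iron-recycling macrophages. The 2 that rose were *Cd163* and the iron exporter *Slc40a1* (1709 ± 144 to 7139 ± 337), the latter named after its values were seen. Of 13 dendritic cell markers 5 fell and 1 rose, with sums of 4706 to 5005 and 2467 to 2622. *Fscn1* fell from 333 ± 43.5 to 23.6 ± 6.46 and *Clec9a*, of cross-presenting cells, from 164 ± 10.6 to 37.5 ± 2.25, and *Cd209a* rose at least 6.52-fold from 3 counts or fewer per Vehicle library. The part of these cells in the interferon, chemokine and antigen presentation results was not tested.

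Most early B cell markers were lower, and mature ones moved both ways. Of 15 early B cell markers 9 fell and none rose (median -1.33), with summed levels of 15577 to 16335 per Vehicle library and 6059 to 6216 per Combo library. *Cd79a*, of the B cell receptor complex, was at 4345, 4625 and 4685 in Vehicle and 1360.1, 1330.0 and 1348 in Combo (log2 fold change -1.76, adjusted p = 6.08e-35). The lineage factor *Pax5* fell from 448 ± 17.1 to 126 ± 15.7 and *Blnk* from 1081 ± 31.5 to 299 ± 29.6. Of 13 mature B and plasma cell markers 3 fell and 1 rose. These were *Ms4a1* (1084 ± 99.7 to 348 ± 27.9), *Cd22* (1221 ± 52.5 to 332 ± 6.46) and *Prdm1* (212 ± 26.9 to 64.6 ± 10.2), and *Tnfrsf17*, which rose at least 6.02-fold from 3 counts or fewer per Vehicle library. The sums of this list were 22965 to 23186 in Vehicle and 23811 to 24779.8 in Combo.

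T cell and cytotoxic genes were lower as well. Of 15 T cell markers 7 fell and none rose (median -0.98), with sums of 4522 to 4753 per Vehicle library and 2490.3 to 2629.7 per Combo library. *Cd8a* was at 447, 394 and 373 in Vehicle and 194, 177 and 142 in Combo (log2 fold change -1.24, adjusted p = 1.22e-13), *Zap70* fell from 324 ± 7.77 to 116 ± 9.11, *Cd28* from 227 ± 4.91 to 81.4 ± 9.09 and *Cd247* from 245 ± 61.1 to 107 ± 14.5, with 60.3% of the exon length of *Cd247* shared. Of 12 NK and cytotoxic markers 8 fell and none rose (median -1.25). *Gzmb*, granzyme B, held 8411, 8408 and 8375 in Vehicle and 138, 154 and 148 in Combo, a log2 fold change of -5.84 (SE 0.0604, adjusted p = 3.76e-45). *Gzma* fell from 3185 ± 47.5 to 139 ± 31.5 and *Prf1*, perforin, from 1167 ± 62.0 to 63.7 ± 18.1. The sums of the NK and cytotoxic list were 24644 to 24888 and 6322 to 6344. *Gzmb*, *Gzma*, *Prf1* and *Ccl5* held most of the Vehicle sum and together fell by more than the sum did.

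Of 16 eosinophil, basophil and mast cell markers 6 fell and 2 rose, with sums of 90350 to 94423 in Vehicle and 54495 to 55424 in Combo. The basophil protease *Mcpt8* fell from 11519 ± 129 to 4335 ± 75.4, the IgE receptor chains *Fcer1a* and *Ms4a2* from 1698 ± 10.9 to 542 ± 36.0 and from 1370.5 ± 90.6 to 523 ± 62.8, and *Il5ra* from 189.7 ± 22.7 to 45.3 ± 4.85. The eosinophil genes *Siglecf* (228 ± 26.8 to 581 ± 44.5) and *Ccr3* rose, and *Siglecf* was named after its values were seen.

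Erythroid and heme genes were largely below the limits. Of 16 erythroid markers 1 rose, a share near the 6.58% of all genes, and none fell. This was *Trim10* (559 ± 53.4 to 1322 ± 36.3, adjusted p = 9.73e-23). None of 11 heme synthesis genes was called, and the medians of the erythroid and heme lists were 0.41 and 0.13. The anion exchanger *Slc4a1* was at 12766 ± 191 in Vehicle and 20854 ± 190.4 in Combo (log2 fold change 0.71), and *Car2* and *Car1* had log2 fold changes of 0.35 and -0.22. The enzymes *Alas1*, *Alas2* and *Cpox* had values of -0.19, -0.54 and 0.47. Summed erythroid levels were 78246 to 79079 and 97234 to 97762.

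Of 16 megakaryocyte and platelet markers 6 fell and none rose (median -0.78, sums 6340.2 to 6618 and 4797 to 4899). The platelet chemokine *Ppbp* was at 304, 317 and 304 in Vehicle and 112, 107 and 116 in Combo (log2 fold change -1.46, adjusted p = 1.28e-15). *Tubb1* fell from 277 ± 5.69 to 116 ± 9.06, *Clec1b* from 132 ± 6.88 to 58.5 ± 5.43 and the collagen receptor *Gp6* from 29.4 ± 6.28 to 4.49 ± 3.28.

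Stem and progenitor markers did not share a direction. Of 17 tested, 3 fell and 2 rose (median 0.21), against 11.1% and 6.58% of all genes, and 10 had log2 fold changes above 0. The sums were 29414 to 29792 and 21864 to 22132, and the fall of *Ly6a* alone was larger than that of the sum. *Ly6a*, which encodes Sca-1 and is itself interferon inducible, held 14803, 14885 and 14959.5 in Vehicle and 342, 389 and 388 in Combo, a log2 fold change of -5.32 (SE 0.047, adjusted p = 2.05e-47). *Procr* fell from 372 ± 37.0 to 10.1 ± 3.04 and *Slamf1*, which encodes CD150, from 111 ± 11.1 to 39.0 ± 2.87. *Kit*, the stem cell factor receptor, was at 1335, 1328 and 1286 in Vehicle and 3409.5, 3271 and 3417 in Combo (log2 fold change 1.35, adjusted p = 3.23e-30), and *Myb*, named after its values were seen, rose from 2919 ± 70.6 to 6266 ± 60.9.

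Stromal and endothelial markers had 4 falls among 18 members, no rise and sums of 9368 to 9525 in Vehicle and 7415 to 7738 in Combo. Their median log2 fold change was 0.13, with 10 members above 0 and 8 below, and the fall of *Spp1* alone was larger than that of the sum. The endothelial genes *Kdr* (188 ± 24.3 to 20.2 ± 3.57), *Cdh5* (286 ± 24.9 to 59.1 ± 3.91) and *Emcn* (21.9 ± 2.31 to 9.39 ± 0.987, adjusted p = 0.00802) fell, as did *Spp1* (3937 ± 74.4 to 1365 ± 38.1), which encodes osteopontin. None of 8 adipocyte markers was called, with sums of 1560.3 to 1842 and 1009 to 1114. *Lpl* had a log2 fold change of -0.97, *Fabp4* of -0.24, *Pparg* of 0.49 and *Adipoq* of -0.19 (adjusted p = 0.353).

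Cholesterol synthesis was the list with the largest share of rises. Of 22 tested, 13 rose and none fell (median log2 fold change 1.19), against 6.58% of all genes, and the summed normalized counts were 16861 to 16979 per Vehicle library and 34416 to 34999 per Combo library. *Msmo1*, the sterol C4 oxidase, was at 514, 469 and 427 in Vehicle and 1806, 1829 and 1806 in Combo (log2 fold change 1.95, adjusted p = 3.15e-27). *Mvk*, mevalonate kinase, rose from 121 ± 2.34 to 462 ± 1.80 and *Hsd17b7* from 160.4 ± 7.23 to 611 ± 50.5.

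**Figure D4:**
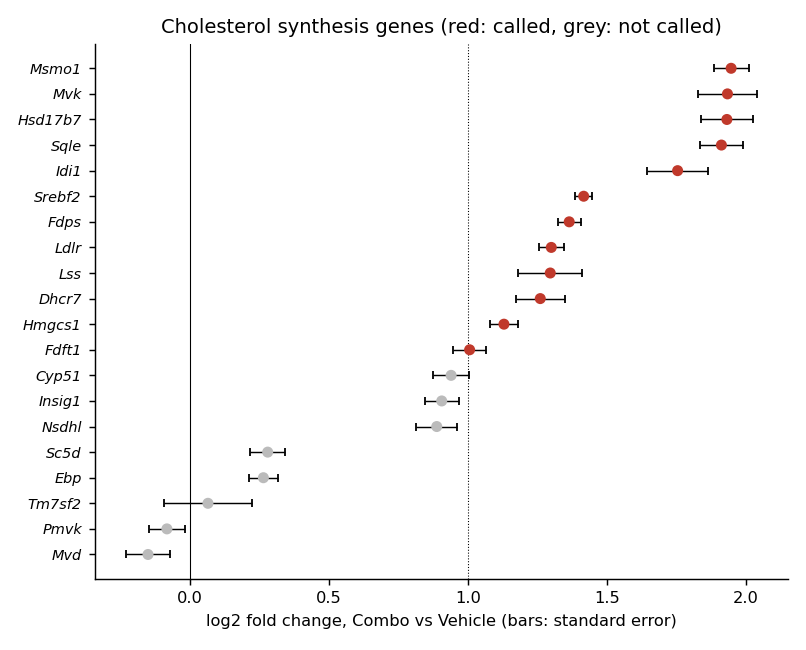
Points are the log2 fold changes of 20 of the 22 cholesterol synthesis genes, bars their standard errors from the fit, and the dotted line the limit of 1. The 12 red points, called higher, run from 1.01 for *Fdft1* to 1.95 for *Msmo1*, and *Pmvk* and *Mvd* lie just below 0.

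Several genes of cholesterol efflux and lipid droplets were lower. Of 15 genes of LXR, lipid uptake and efflux 4 fell and none rose (median -0.47), against 11.1% of all genes called lower. *Nr1h3*, which encodes the sterol sensor LXRα, fell from 262 ± 47.9 to 50.1 ± 1.93, its target transporters *Abca1* and *Abcg1* from 849 ± 108 to 223 ± 14.4 and from 2199.8 ± 93.3 to 848 ± 29.6 and the lipid droplet gene *Plin2* from 17229.5 ± 336 to 6433 ± 101 (adjusted p = 1.3e-23). In fatty acid synthesis 1 of 12 rose, the desaturase *Fads2* (257 ± 19.6 to 545 ± 21.2), and 1 fell, the desaturase *Scd1* (3190.2 ± 88.1 to 775 ± 57.5, adjusted p = 5.15e-33). These shares are near the 6.58% and 11.1% of all genes. *Acly* and *Scd2* had log2 fold changes of 0.70 and 0.40.

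Of 19 fatty acid oxidation genes 2 rose and 1 fell, against 6.58% and 11.1% of all genes. *Acox2*, a peroxisomal oxidase of branched-chain fatty acids and bile acid precursors, had 0 counts in the 3 Vehicle libraries and 34.0, 60.4 and 57.4 normalized counts in Combo, a rise of at least 14.8-fold. *Cpt2*, of the carnitine shuttle, rose from 571 ± 12.2 to 1255 ± 70.3 and *Pdk4*, which inhibits pyruvate dehydrogenase, fell from 39.8 ± 16.6 to 5.21 ± 2.06. *Acadl* had a log2 fold change of -0.91 and was not called. In glycolysis 1 of 18 rose, a share near the 6.58% of all genes. This was the myeloid hexokinase *Hk3* (9163 ± 229.8 to 21193 ± 161, adjusted p = 9.22e-35), and *Gapdh*, *Pkm* and *Gpi1* had log2 fold changes of 0.08, 0.38 and 0.45. In the respiratory chain 1 of 20 fell, against 11.1% of all genes. This was *Cycs*, cytochrome c (6209.6 ± 203 to 3070.0 ± 78.5), while *Atp5a1*, *Atp5b* and *Cox4i1* had values of 0.38, 0.26 and -0.17.

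Stress and housekeeping lists were read against the 17.7% of all genes called. Of 15 antioxidant genes 2 rose, *Nqo1* (189 ± 16.4 to 483 ± 10.3) and *G6pdx* (18863 ± 282 to 43106 ± 375), and 2 fell, *Hmox1*, heme oxygenase (13406 ± 412 to 3333 ± 62.3), and the mitochondrial dismutase *Sod2* (5616 ± 257 to 1666 ± 44.7). Of 15 genes of the unfolded protein response 2 fell, *Trib3* (237 ± 23.1 to 62.6 ± 5.53) and *Ddit3* (1026 ± 32.4 to 377 ± 20.6), and the chaperones *Hspa5* and *Calr* had log2 fold changes of -0.47 and -0.05. None of 23 cytosolic ribosomal protein genes was called (median -0.24), with 0.01 for *Rplp0*, -0.02 for *Rpl4*, -0.24 for *Rps9* and -0.30 for *Rps3*. Yet 21 of them had log2 fold changes below 0. In 19 every Combo library lay below every Vehicle library, against 4913 of all 13353 genes. Their summed normalized counts were 890860 to 912341 per Vehicle library and 760055 to 771348 per Combo library.

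None of 22 DNA replication genes and none of 18 mitosis genes was called, with medians of 0.26 and 0.42, below the fold-change limit. In 17 and 16 of them all Combo libraries lay above all Vehicle libraries, against 38.9% of all genes. *Mki67* was at 21394, 22473 and 22668 in Vehicle and 29849.5, 29603 and 30239 in Combo (log2 fold change 0.43), and *Top2a*, *Kif11* and *Tpx2* had values of 0.49, 0.36 and 0.45. *Rrm1*, *Rrm2*, *Pcna* and *Mcm6* had values of 0.51, 0.26, 0.14 and 0.29.

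The Ras-ERK cascade lies downstream of SHP2 and induces its own inhibitors and a set of early genes. Of 17 feedback and target genes 8 fell and 1 rose (median -0.79), against 11.1% and 6.58% of all genes. The single rise is near that share. *Ccnd1*, cyclin D1, was at 1232, 1155 and 1229.6 in Vehicle and 294, 308 and 251 in Combo (log2 fold change -2.08, adjusted p = 5.08e-26), with 23.4% of its exon length shared. The ERK phosphatase *Dusp4* fell from 59.3 ± 1.46 to 11.5 ± 7.89 and *Etv4* from 56.7 ± 8.76 to 6.64 ± 3.99. *Egr1*, an immediate early factor, was the member that rose, at 1400.5, 1470.1 and 1365 in Vehicle and 6012, 6078 and 6027 in Combo (log2 fold change 2.10, adjusted p = 5.2e-38). Among 18 immediate early and heat shock genes, which also respond to cell handling, 3 rose and 1 fell, against 6.58% and 11.1% of all genes. Those that rose were *Egr1*, *Fosb* (327 ± 17.6 to 1241 ± 74.8) and *Egr2* (29.2 ± 1.78 to 89.3 ± 18.3), and *Atf3* fell (617 ± 9.64 to 70.2 ± 11.3). The part of handling in the *Egr1* value was not tested.

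The genes of the model and of the drug targets were read in every library. *Ptpn11* was at 4509.9, 4426 and 4719 in Vehicle and 5418, 5413 and 5453 in Combo (log2 fold change 0.25, adjusted p = 4.28e-10), and the counts do not tell the mutant from the normal allele. *Ptprc*, whose product CD45 marks donor and competitor cells, was at 17826 ± 95.9 and 24560.5 ± 245, and the counts do not tell its alleles apart. *Lyz2*, whose promoter drives the Cre, was at 121594, 119911 and 120189 in Vehicle and 220700, 219968 and 217172 in Combo (log2 fold change 0.86), below the fold-change limit. *Dpp4*, which degrades GLP-1, was the 1 of 9 members called, against 17.7% of all genes. It was at 1345, 1224 and 1202 in Vehicle and 393, 369.6 and 382 in Combo (log2 fold change -1.72, adjusted p = 4.75e-25). The leptin receptor *Lepr* was at 33.0 ± 11.2 and 59.8 ± 2.73, and *Insr*, *Igf1r*, *Irs1* and *Irs2* had log2 fold changes of 0.14, 0.45, -0.77 and 0.03. *Glp1r*, *Gcg*, *Gipr* and *Lep* were not analysed here.

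Whether Combo differed from either agent alone was tested by direct contrasts in the same fit, which share the Combo libraries with the comparison above. Against the GLP-1R agonist 1757 genes differed (13.2%), of which 613 (4.59%) were higher and 1144 (8.57%) lower with Combo. Against the antibody 757 genes differed (5.67%), of which 139 (1.04%) were higher and 618 (4.63%) lower. The genes given side by side here were picked from those named above after their values were seen. *Isg15* was low in all 3 treated groups, being at 249 ± 19.7 with the GLP-1R agonist, 346 ± 21.4 with the antibody and 181 ± 20.1 with Combo, and *Il17a* was at 0 in every library of the GLP-1R agonist. Of the 36 type I interferon-stimulated genes, 8 were called higher and 2 lower with Combo than with the GLP-1R agonist (4.59% and 8.57% of all genes), 0 were called higher and 9 lower with Combo than with the antibody (1.04% and 4.63%), and the median differences were 0.28 against the GLP-1R agonist and -0.28 against the antibody.

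Some genes were higher with Combo than with either agent. *Prok2* was at 86.2, 81.5 and 85.8 with the GLP-1R agonist, 370.5, 324 and 283 with the antibody and 1900.2, 1746 and 1840.3 with Combo, log2 fold changes of 4.43 and 2.49 for Combo (adjusted p = 9.36e-33 and 2.17e-26). *Stfa2* was at 1601, 1588 and 1555 with the GLP-1R agonist and 1998, 2181 and 2131 with the antibody (log2 fold changes 2.58 and 2.17 for Combo, adjusted p = 1.21e-37 and 6.33e-35). *Nos2*, which Combo lowered from the Vehicle level, was nevertheless higher with Combo than with the antibody, at 488 ± 41.1 against 13.4 ± 2.55 (log2 fold change 5.17, adjusted p = 1.75e-26), and it was at 1.54 ± 1.96 with the GLP-1R agonist and at 0 in WT. *Acox2* was at 2.82 ± 0.195 with the antibody and 50.6 ± 14.5 with Combo. *Mpo* was at 95073 ± 374 with the GLP-1R agonist, 135267 ± 1433 with the antibody and 193753 ± 2093 with Combo, log2 fold changes of 1.03 and 0.52 for Combo, of which the latter was below the limit. *Hk3* was at 6372 ± 92.7 and 14148 ± 147 with the single agents, log2 fold changes of 1.73 and 0.58 for Combo, again below the limit against the antibody.

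Lymphoid and class II genes gave a different order. *Cd79a* was at 1288 ± 11.0 with the GLP-1R agonist, 4438 ± 94.0 with the antibody and 1346 ± 15.1 with Combo, a log2 fold change of -1.72 against the antibody (adjusted p = 1.85e-33) and 0.06 against the GLP-1R agonist (adjusted p = 0.141). *Cd8a* was at 597 ± 33.8 with the GLP-1R agonist and 218 ± 20.8 with the antibody (log2 fold changes -1.80 and -0.35 for Combo, adjusted p = 2.5e-19 and 0.00846). *Cd74* was at 8834 ± 223 and 12186 ± 122, log2 fold changes of -0.81 and -1.28 for Combo. Of the 15 T cell markers 14 were called lower with Combo than with the GLP-1R agonist (8.57% of all genes) and 0 were called in either direction against the antibody in edgeR's test. The sex-linked genes also differed here. *Eif2s3y* was at 2256 ± 125 with the GLP-1R agonist, 2299 ± 24.9 with the antibody and 161 ± 23.2 with Combo, and *Xist* at 2.17 ± 3.03, 98.4 ± 13.2 and 3609.9 ± 70.9, so that the sex of the cells differed along with the treatment, and its part in the differences between Combo and either agent cannot be told apart.

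**Figure D5:**
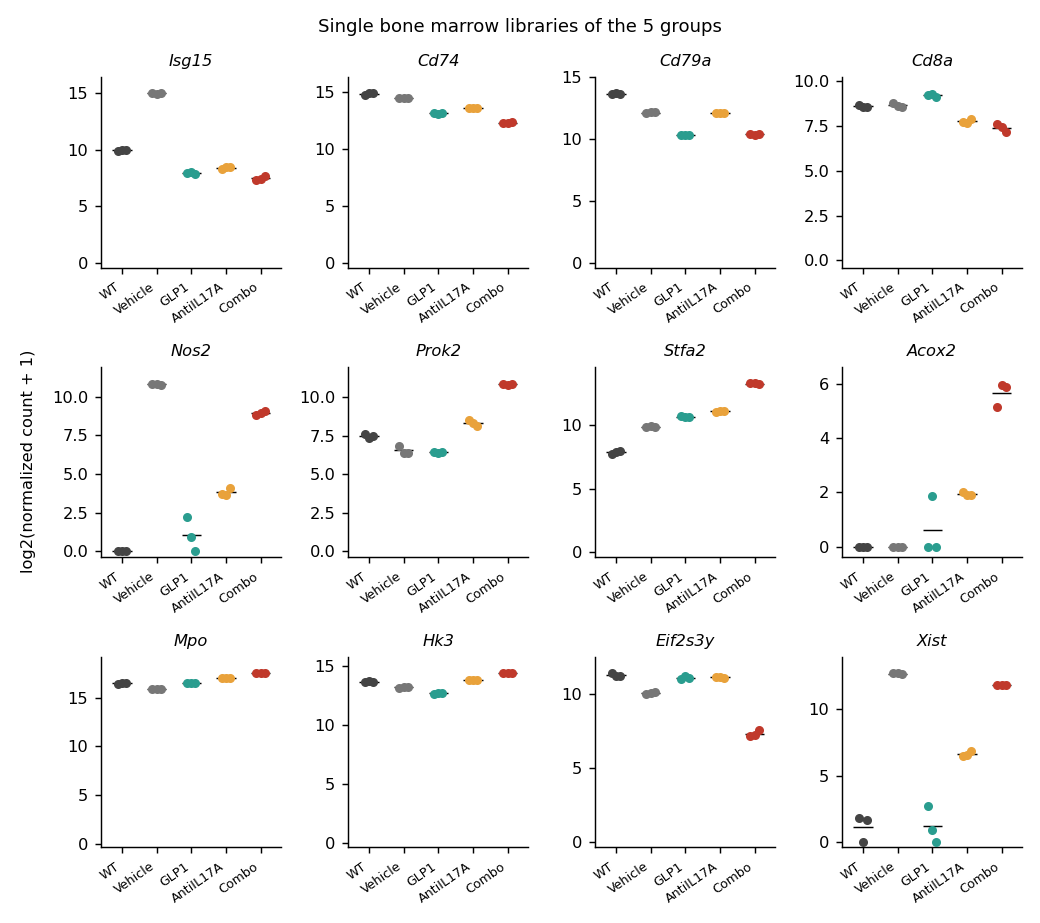
Each dot is 1 BM library of the 5 groups and the line is the mean of the 3 plotted values, on a log2(normalized count + 1) scale. *Isg15* is highest in Vehicle, *Prok2*, *Stfa2* and *Acox2* are highest with Combo, *Eif2s3y* is lowest with Combo, and *Xist* is highest in Vehicle and Combo.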

How the data were processed

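RNA was read from whole BM cells after poly(A) selection, without strand information, and the authors deposited raw counts per gene for 15 BM libraries (5 groups of 3). To make them, the authors mapped reads with STAR 2.7.2a on mm10 and counted those with a mapping quality of at least 10 over GENCODE genes with featureCounts 2.0.1, assigning a read that overlapped several genes to each of them. The table of adipose tissue macrophages was not used here. The members and the gene lists were chosen with earlier results of these data known.

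The counts were fitted for all 15 BM libraries together with edgeR 4.0.16 in R 4.3.3, using TMM normalization and the robust quasi-likelihood test, with Benjamini-Hochberg adjustment over 13353 genes. filterByExpr removed 0 genes, the smallest row total being 55, so genes with few counts appear to have been left out of the table. All comparisons are contrasts of this fit, which had 10 residual degrees of freedom. The script was tested on simulated counts with 200 changed genes. Where all 3 libraries of a group had at most 3 counts, a fold is given as a bound against a floor of 3 counts per library. Bounds cover counting error only. Totals of over 31281097 counts leave little counting error for genes above about 100 counts.

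Named genes were the 10 largest rises and 10 largest falls among called genes that had a mean of at least 100 normalized counts, libraries that did not overlap and a symbol other than a Gm number or Rik clone; the 5 largest rises and 5 largest falls in CPM; the 4 called members of each list with the largest changes, filled up where fewer were called with the most counted members; all genes of the model, the drug targets and the sex-linked list; and the IL-17 axis genes together with those the study names for Combo in BM, of which *Cxcl5*, *Il17rc* and *Il17re* were not analysed here. Coordinates are those of GENCODE M21 on GRCm38, and promoters those of RefSeq for GRCm38.p6, matched by symbol. Of 240 named genes, 26 share more than 10% of their exon length with another gene. Alternatives were other size factors, DESeq2 1.42.0, another filter, other fold-change limits, fewer libraries and a block for the replicate number. Values of some named genes and list members are not reported here, though list counts, medians and sums include them.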

Additional observations from a re-analysis of the deposited data

How the results depend on the processing

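With a false discovery rate alone and no fold-change limit, 9849 genes differed between Combo and Vehicle (5063 higher, 4786 lower), 9529 between Combo and the GLP-1R agonist and 7015 between Combo and the antibody. Tested against a log2 fold change of 1 with glmTreat, 1474 genes differed from Vehicle, 465 of them higher and 1009 lower, with 737 against the GLP-1R agonist and 193 against the antibody. Requiring 10 counts in every Combo and Vehicle library, which leaves 12061 genes to test, gave 1709 genes against Vehicle and 467 against the antibody. DESeq2 called 2367 genes (860 higher, 1507 lower), 2339 of them shared with edgeR, and DESeq2 size factors in edgeR 2360. A fit to the libraries of both groups alone gave 2263. Leaving out each library in turn gave 2301 to 2372 genes against Vehicle (771 to 880 higher, 1456 to 1530 lower), 1698 to 1765 against the GLP-1R agonist and 719 to 759 against the antibody. No shared call against Vehicle changed sign under these settings; the sign was not checked for the contrasts with the single agents. Of the 240 named genes, 9 lost the call under glmTreat and 205 could be tested with 10 counts required. The number of members called moved by over 1.5 times in 38 of 55 lists without the fold-change limit, in 9 under glmTreat, in 6 with 10 counts required and in 1 to 3 when a library was left out. With the replicate block, 2362 genes were called against Vehicle (875 higher, 1487 lower), 1755 against the GLP-1R agonist and 761 against the antibody; deviations of same-numbered Combo and Vehicle libraries correlated at 0.050, -0.007 and 0.038 over genes, and Combo library 2 correlated best with Vehicle library 1, so the numbers were not taken to pair the samples. The median log2 ratio of all genes was 0.02 with TMM, 0.0066 with DESeq2 size factors and -0.0020 with total counts. The depth limits genes near 3 counts, such as *Il17a* with Combo.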
